A study of Mus musculus with 8 samples.

Results

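Granulocytes were the 369 cells that the authors annotated as such among the 22441 CD45+ cells (1.64%) sorted from beta cell grafts, and all 369 belonged to a single cluster. WT or Rnls mutant (Rnlsmut) NIT-1 cells, a beta cell line of NOD mouse origin, had been injected under the skin on opposite flanks of NOD.scid mice. These mice lack T and B cells and were then given autoreactive splenocytes of diabetic NOD mice into the blood, and living CD45+ cells of the grafts were sorted 10 or 17 days after the transfer. A hashtag antibody identified each graft, and the 4 grafts of a genotype and day were pooled into 1 of 4 droplet libraries, which count the 3' ends of transcripts as unique molecular identifiers (UMIs). Hosts, splenocyte donors and treatment were alike in the 4 groups, which were WT at day 10, Rnlsmut at day 10, WT at day 17 and Rnlsmut at day 17. The mutation was carried by the grafted line and not by the granulocytes, so no granulocyte transcript checks the genotype label. NOD.scid mice have granulocytes of their own, and host and donor granulocytes cannot be told apart here. Genotype and day each coincide with the library, so effects of either on these cells and effects of the library preparation cannot be told apart.

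Granulocytes, most of them neutrophils, are short-lived cells of the bone marrow that enter inflamed tissue from the blood. They form their granules in steps during maturation, beginning with primary granules, and mature cells carry few RNA molecules, large stores of the calcium-binding proteins S100A8 and S100A9, and receptors for chemokines, formyl peptides and the growth factor G-CSF. In the pancreas of NOD mice, neutrophils are known to appear early in the autoimmune process.

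The counts per graft were 18, 7, 11 and 14 granulocytes in WT and 53, 49, 53 and 37 in Rnlsmut grafts at day 10, and 39, 2, 4 and 12 in WT and 10, 6, 34 and 20 in Rnlsmut grafts at day 17. Genes were compared in the 12 grafts with at least 10 granulocytes, which were 3 WT and 4 Rnlsmut grafts at day 10 and 2 WT and 3 Rnlsmut grafts at day 17. The granulocytes held 570750 UMIs in all, with a median of 1319 UMIs and 598 genes per cell, against 4530 UMIs and 1795 genes in monocytes. The deposited table begins at 1001 UMIs, and 42.0% of granulocytes lay within 250 UMIs above 1000, against 0.81% of monocytes, so their shares are shares of the cells above that minimum. The library of WT grafts at day 17 was the deepest, with a median of 4242 UMIs in its T cells against 2260.5 to 2873 in the other libraries, and its granulocytes had a median of 2213 UMIs against 1214.5 to 1286. Mitochondrial transcripts made up 0.109% of granulocyte UMIs and 1.04% of monocyte UMIs, and 52.3% of granulocytes had none. Of the 42 cell barcodes that occurred in more than 1 library, 2 belonged to granulocytes.

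The defining markers were found in most, not all, of these cells. S100a9 was detected in 84.3% of the 369 cells, S100a8 in 73.7% and the G-CSF receptor gene Csf3r in 65.6%. In NK cells, which should lack them and were deeper (median 2411 UMIs), S100a9 was detected in 0.99%, S100a8 in 0.396% and Csf3r in 0.198%. Neither S100a8 nor S100a9 was detected in 48 granulocytes, which were 10, 25, 5 and 8 cells of the WT and Rnlsmut grafts of day 10 and the WT and Rnlsmut grafts of day 17, and 23 (6.23%) held no UMI of any of the 3 markers. The 11 further neutrophil markers were all detected, among them Hdc, the enzyme that makes histamine, in 82.1%, the lectin receptor gene Clec4d in 83.5%, and Ly6g in 11.9%. Genes that define other granulocyte classes were at or near 0: 6 of 7 basophil markers, 4 of 6 eosinophil markers and 4 of 4 mast cell markers had 0 UMIs, which allows a share of cells with a UMI of up to 0.995% for each (exact binomial 95% limit, counting error only) and sets no limit on cells that express the gene below detection. The eosinophil marker Siglecf was found in 0.542% of the cells. All B cell markers, all red cell markers and the beta cell genes Ins1, Ins2, Iapp and Chga had 0 UMIs too. At least 1 UMI of a lymphocyte marker (Cd3d, Cd3e, Cd3g, Cd79a or Ncr1) was present in 26 granulocytes (7.05%).

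Granulocytes were set against monocytes, another short-lived myeloid cell of the blood, as medians over the 12 grafts of UMIs of a gene per 1000000 UMIs of the cells of a graft (CPM). Since the cell types were annotated from these same genes, this is a description without a test. Of 2068 genes at 100 CPM or more in either type, 215 were over 4 times higher in granulocytes and 470 were over 4 times lower. S100a9 was at 37768 against 2.49 CPM in monocytes, S100a8 at 17602 against 9.84 and Csf3r at 1024 against 56.1. G0s2, an inhibitor of triglyceride lipase, was at 4011 against 0.224, and the chemokine receptor gene Cxcr2, which guides neutrophils out of the blood, at 464 against 0. Retnlg, a resistin-like secreted protein, was at 677 against 0, and the decoy interleukin 1 receptor gene Il1r2 at 1146 against 10.3. Among secreted signals, the neutrophil chemoattractant Cxcl2 was at 18120 against 265, Ccl3 at 1179 against 14.2, Il1a at 398 against 1.6 and the interleukin 36 gamma gene Il1f9 at 1198 against 0. Of the 20 genes with the highest ratios, 18 were higher in granulocytes in every one of the 12 grafts, and the exceptions were Il1a (11 grafts) and Il23a (10 grafts). On the other side stood genes of classical monocytes. Ly6c2 was at 0 against 520.4, the chemokine receptor gene Ccr2 at 0 against 265 and Irf8, a transcription factor of the monocyte and dendritic cell line, at 0 against 498. A median of 0 is not absence, since the granulocytes of the 12 grafts held 12 UMIs of Ly6c2, 3 of Ccr2 and 14 of Irf8.

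**Figure D1:**
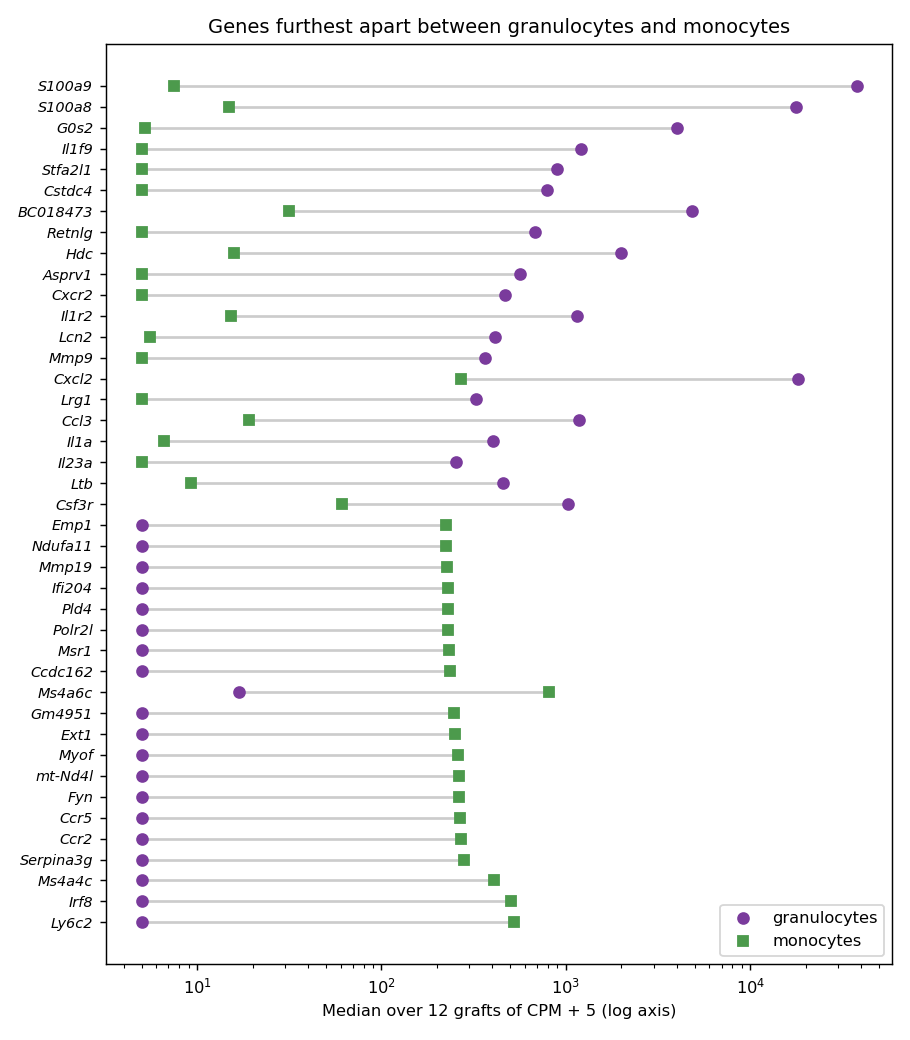
Each row is a gene, and the points give its median over 12 grafts of CPM plus 5, on a log axis, in granulocytes (circles) and monocytes (squares). The 20 genes with the highest and the 20 with the lowest ratio are shown with Csf3r, and S100a9 lies furthest apart with 37768 against 2.49 CPM.

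Granule genes set an order of maturation beside these markers. Of the primary granule genes, which are made in early precursors, Mpo, Elane, Ctsg and Ms4a3 had 0 UMIs and Prtn3 had 1. Genes of secondary granules, which follow later, were found in few cells. At least 1 UMI of Ngp, Camp or Ltf was present in 28 granulocytes and at least 10 in 4. In the WT graft of 39 granulocytes at day 17, 267 UMIs of Ngp came from 4 cells, 155 of them from a single cell, and 159 UMIs of the cathelicidin gene Camp came from 3 cells. Ltf, the lactoferrin gene, was detected in 5.69% of granulocytes and Lcn2, which binds bacterial siderophores, in 23.3%. Mmp9, the gelatinase of tertiary granules, was detected in 37.7%.

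The share of granulocytes differed most between genotypes at day 10. In WT grafts at day 10 it was 0.963, 0.356, 0.574 and 0.751% of CD45+ cells, with a mean of 0.661% ± 0.258 (SD, n = 4). In Rnlsmut grafts at day 10 it was 3.19, 3.23, 3.25 and 2.01%, with a mean of 2.92% ± 0.605 (SD, n = 4), and each of these lay above each WT graft. The difference was 2.26 percentage points (two-sided exact permutation test, p = 0.0286, the smallest value that 70 assignments allow), and with Benjamini-Hochberg adjustment over the 6 comparisons of shares p was 0.171. At day 17 the grafts spread widely, with 4.46, 0.571, 0.36 and 3.4% in WT (mean 2.20% ± 2.05) and 0.518, 0.369, 2.47 and 3.66% in Rnlsmut grafts (mean 1.75% ± 1.59), and the 2 genotypes overlapped (exact permutation test, p = 0.743). Day 17 and day 10 could not be told apart within WT grafts (1.54 percentage points, exact p = 0.343), within Rnlsmut grafts (−1.16, exact p = 0.257) or over both genotypes (0.186, exact p = 0.773). In Rnlsmut grafts the direction reversed at the depth-scaled minimum given below (0.188) and without macrophages in the denominator (0.792), and as a share of myeloid cells the difference was −5.64 percentage points (exact p = 0.0286, unadjusted). Over both genotypes it reversed to −1.58 as a share of myeloid cells. Over both days, the genotypes differed by 0.907 percentage points (exact p = 0.233).

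The day 10 difference moved with the minimum of UMIs. When the minimum was raised in each library in proportion to the depth of its T cells, the means were 0.466% in WT and 1.57% in Rnlsmut grafts at day 10, a difference of 1.10 points (exact p = 0.0286). Among cells of 2000 or more UMIs the difference was 0.0278 points. That minimum lay above the median of granulocytes at day 10, which was 1236.5 UMIs in WT and 1286 in Rnlsmut grafts. Monocytes, which share the denominator, fell from a mean of 15.5% of CD45+ cells at day 10 to 4.35% at day 17 in WT grafts and from 13.8% to 2.29% in Rnlsmut grafts. Per 100 monocytes there were 4.44 granulocytes in WT and 21.8 in Rnlsmut grafts at day 10, and 52.0 and 72.6 at day 17.

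**Figure D2:**
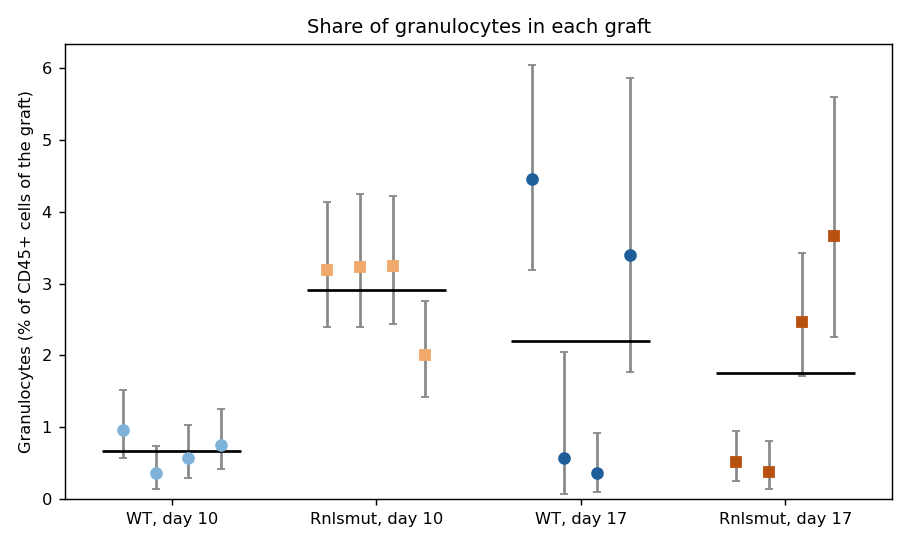
Points give the share of granulocytes among the CD45+ cells of each graft in percent, bars the exact binomial 95% intervals (counting error only) and black lines the means of 4 grafts. The 4 Rnlsmut grafts at day 10 lie between 2.01% and 3.25%, above the WT grafts of that day, which lie between 0.356% and 0.963%, while the day 17 grafts span 0.36% to 4.46%.

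Between day 10 and day 17, granulocytes gained transcripts of 6 of 23 tested NF-kB and early response genes, 3 of 6 S100 and annexin genes, the formyl peptide receptor gene Fpr1 and Hdc. They lost transcripts of 4 of 14 tested type I interferon genes and of Plin2 and Hilpda, which belong to lipid droplets. Transcripts of Cstb, which inhibits cathepsins, and of Npc2, which carries cholesterol out of lysosomes, fell as well. UMIs were summed over the granulocytes of each graft and tested over 927 genes with edgeR's quasi-likelihood test (adjusted p after Benjamini and Hochberg), as the mean of the changes in WT and Rnlsmut grafts. Of these genes 81 passed an adjusted p of 0.05 (8.74%), 40 higher at day 17 (4.31%) and 41 lower (4.42%). Without the WT graft of 39 granulocytes at day 17, 28 genes passed, 24 of them among the 81, and without the first Rnlsmut graft of day 10 or the fourth of day 17, 53 and 51 passed. There were 17 genes, 11 higher and 6 lower, that passed in every alternative in which they were tested, each graft left out in turn included. For Ly6a these were 8 alternatives, for Ifit2 17 and for the others all 18, since genes could fall under the filter on low counts. The calls of the other genes were each lost in some alternative, and the losses given beside them are not a full list. Since mature granulocytes hold few UMIs, 1 UMI stood for 10.5 to 79.8 CPM in a graft.

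Dusp16, a phosphatase that acts on the stress kinase JNK, was at 406, 382 and 546 CPM in the WT grafts and 465, 576, 817 and 651 in the Rnlsmut grafts at day 10, and 1339 and 3018 (WT) and 1357, 1570 and 937 (Rnlsmut) at day 17. All 5 grafts of day 17 lay above all 7 grafts of day 10 (log2 fold change 1.65 ± 0.26 SE, adjusted p = 0.00168). Ppp1r15a, which restarts translation after stress, was at 590.4, 305 and 126 CPM in the WT grafts and 610.1, 443, 656 and 630.2 in the Rnlsmut grafts at day 10, and 1057 and 1245 (WT) and 639, 1167 and 1345 (Rnlsmut) at day 17 (log2 fold change 1.32 ± 0.28 SE, adjusted p = 0.00783). Its lowest day 17 graft lay just under the highest day 10 graft. Hdc was at 1218, 1222 and 1555 CPM in the WT grafts and 1569, 1610, 1581 and 2374 in the Rnlsmut grafts at day 10, and 2992 and 2753 (WT) and 2794, 2970 and 3667 (Rnlsmut) at day 17 (log2 fold change 0.99 ± 0.20 SE, adjusted p = 0.0075), with no overlap between days. Fpr1, the receptor for formylated peptides of bacteria and mitochondria, was at 111, 153 and 0 CPM in the WT grafts and 363, 414, 469 and 378 in the Rnlsmut grafts at day 10, and 439 and 1018 (WT) and 399, 552 and 815 (Rnlsmut) at day 17 (log2 fold change 1.83 ± 0.38 SE, adjusted p = 0.00783). The WT grafts of day 10 were the low ones, and the Rnlsmut grafts overlapped between days. Antxr2, an anthrax toxin receptor, rose from a range of 382 to 1292 CPM at day 10 to 1660 to 2822 at day 17 (log2 fold change 1.26 ± 0.25 SE, adjusted p = 0.00636). Picalm, which takes part in clathrin-mediated uptake, Arhgap15, which acts on the GTPase Rac, and Dennd4a rose as well (log2 fold changes 1.17, 1.39 and 1.23). Arhgap15 and Dennd4a were also higher at day 17 in the lymphocytes of the same grafts, where Dennd4a was at a mean of 754 and 753 CPM at day 10 and 1813 and 2011 at day 17. The part of such RNA in the granulocyte values was not tested.

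**Figure D3:**
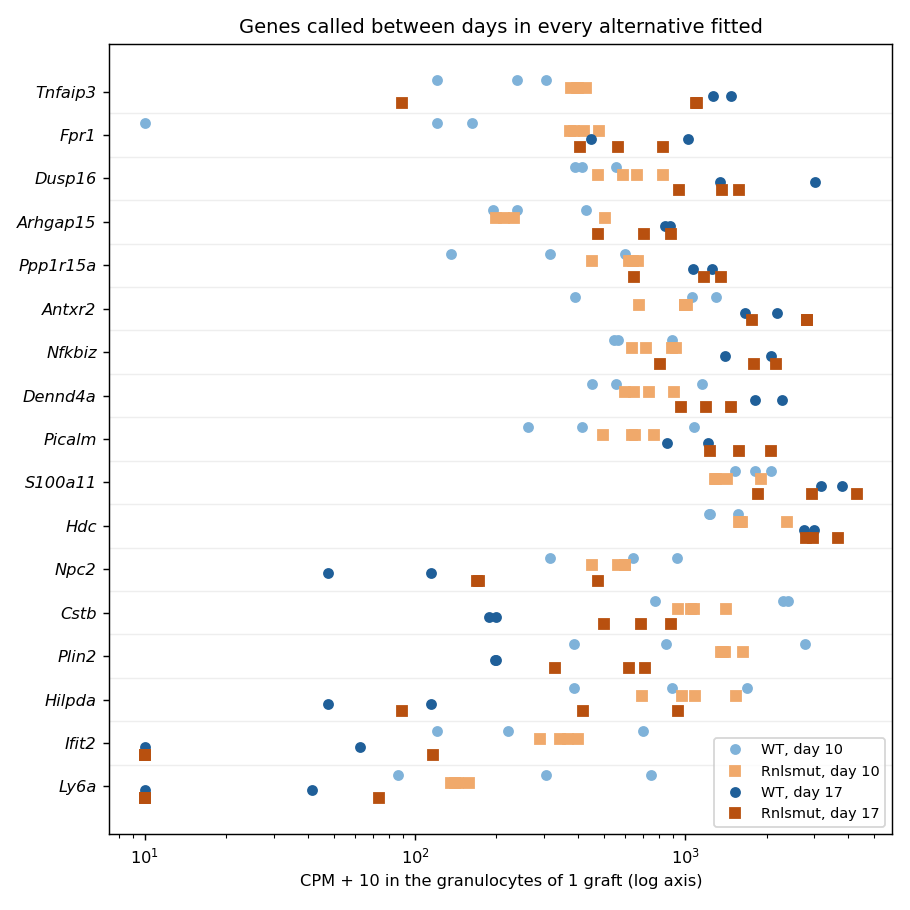
Each row is 1 of the 17 genes called between days in every alternative in which they were tested (8 for Ly6a, 17 for Ifit2, 18 for the others), and each point is 1 graft at its CPM plus 10, on a log axis, coloured by genotype and day. The 5 dark points of day 17 lie to the right of the 7 pale points of day 10 for Dusp16, Antxr2 and Hdc. For Ifit2 and Ly6a they lie to the left, and the other 12 genes overlap. The genes were picked by their calls between these same days, so such separation adds no evidence. The share without overlap among all tested genes is not given here.

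Of 9 S100 and annexin genes, 6 passed the filter on low counts, and 3 of these 6 rose and 0 fell. S100a11 was at 1513, 2062 and 1807 CPM in the WT grafts and 1293, 1418, 1902 and 1281 in the Rnlsmut grafts at day 10, and 3180 and 3810 (WT) and 4310, 1846 and 2934 (Rnlsmut) at day 17 (log2 fold change 1.00 ± 0.21 SE, adjusted p = 0.00868). S100a6 was at 4355, 1985 and 3236 CPM in the WT grafts and 3457, 3456, 4033 and 2920 in the Rnlsmut grafts at day 10, and 6539 and 5318 (WT) and 4949, 5495 and 5949 (Rnlsmut) at day 17 (log2 fold change 0.79 ± 0.20 SE, adjusted p = 0.0191), with no overlap between days. S100a8 was at 9226, 15652 and 19793 CPM in the WT grafts and 17011, 13899, 18194 and 8739 in the Rnlsmut grafts at day 10, and 50197 and 38096 (WT) and 20113, 15148 and 22860 (Rnlsmut) at day 17 (log2 fold change 1.01 ± 0.22 SE, adjusted p = 0.00898). Both fitted WT grafts of day 17 were high, and the Rnlsmut grafts overlapped between days. The WT grafts of day 17 with 2 and 4 granulocytes, which were not fitted, were at 1828 and 5658 CPM. The call was lost without granulocytes of 4000 or more UMIs, with the hashtag block or without the larger fitted WT graft (range without single grafts 0.89 to 1.18). The call of S100a6 was lost under these and without the fourth Rnlsmut graft of day 17 (0.65 to 0.93). S100a9 gave an adjusted p of 0.074 and a log2 fold change of 0.68. Of the 11 neutrophil markers, 10 passed the filter and 2 rose (Hdc, and Mmp9, which lost its call without the larger WT graft of day 17 with a range of 1.06 to 1.27), while Cxcr2 (log2 fold change 0.47 ± 0.32 SE, adjusted p = 0.357) and Csf3r (log2 fold change 0.40 ± 0.23 SE, adjusted p = 0.287) did not pass.

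The interferon-induced genes stood on the other side. Type I interferons switch on these genes through a factor complex that reads GAAA, any 2 bases and GAAA, the core of the interferon-stimulated response element. Of 20 genes of this response, 19 were in the table and 14 passed the filter on low counts. Of these 14, 4 fell (Ifit2, Ifit3, Isg15 and Rsad2) and 0 rose, 13 had a fold change below 0, and the median log2 fold change was −1.07 against 0.02 over all 927 genes. Ifit2, which restrains translation of viral RNA, was at 111, 687 and 210.1 CPM in the WT grafts and 392, 281, 335 and 357 in the Rnlsmut grafts at day 10, and 52.3 and 0 (WT) and 0, 106 and 0 (Rnlsmut) at day 17 (log2 fold change −2.62 ± 0.57 SE, adjusted p = 0.00886). No graft of day 17 reached the lowest graft of day 10. Ifit3 was at 443, 305 and 168 CPM in the WT grafts and 726, 281, 281 and 168 in the Rnlsmut grafts at day 10, and 52.3 and 37.7 (WT) and 79.8, 255 and 0 (Rnlsmut) at day 17 (log2 fold change −1.94 ± 0.55 SE, adjusted p = 0.0304). Isg15, a ubiquitin-like protein, was at 3543, 5421 and 1849 CPM in the WT grafts and 4024, 3279, 3899 and 3844 in the Rnlsmut grafts at day 10, and 1705 and 415 (WT) and 3113, 2164 and 1182 (Rnlsmut) at day 17 (log2 fold change −1.21 ± 0.30 SE, adjusted p = 0.015). Rsad2, the antiviral protein viperin, was at 1734, 1909 and 1303 CPM in the WT grafts and 2876, 1078, 1969 and 1639 in the Rnlsmut grafts at day 10, and 722 and 151 (WT) and 1357, 1379 and 529.7 (Rnlsmut) at day 17 (log2 fold change −1.22 ± 0.32 SE, adjusted p = 0.0219). For the latter 3 the days overlapped. The call of each was lost without the fourth WT or the fourth Rnlsmut graft of day 17, that of Rsad2 and Ifit3 also without the first WT graft of day 10, and that of Ifit3 also without the first WT graft of day 17. Without single grafts the log2 fold changes ranged over −1.93 to −0.91 for Isg15, −2.08 to −0.95 for Rsad2 and −3.08 to −1.68 for Ifit3, which was tested in 11 of the 12 omissions. Of 17 tested genes of the interferon gamma response, 2 fell and 0 rose. Socs1, an inhibitor of interferon signalling, was at 111, 916 and 84 CPM in the WT grafts and 567, 458, 496 and 462 in the Rnlsmut grafts at day 10, and 20.9 and 37.7 (WT) and 159.6, 191 and 40.7 (Rnlsmut) at day 17 (log2 fold change −2.57 ± 0.56 SE, adjusted p = 0.00868), and the call was lost without the larger WT graft of day 17 (range without single grafts −2.93 to −1.84). Irgm1, a GTPase of the defence against intracellular microbes, had a log2 fold change of −1.32, and its call was lost without 10 of the 12 single grafts (range −1.93 to −0.86).

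The summed level of the 19 type I interferon genes was 7438 to 16950 CPM in WT and 10650 to 17374 in Rnlsmut granulocytes at day 10, and 2829 to 6194 and 6968 to 9781 at day 17. In lymphocytes it was 1043 to 1294 CPM in WT and 921 to 1258 in Rnlsmut grafts at day 10, and 545 to 1076 and 615 to 1038 at day 17. Isg15 alone was at means of 553 and 674 CPM in macrophages at day 10 and 86.8 and 41.9 at day 17, below the granulocytes of each group. In monocytes the sum of the 19 genes was 3355 to 6410 and 4743 to 5873 at day 10, and 3547 to 4648 and 3730 to 4770 at day 17.

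The promoters of the interferon genes that fell are shown because these genes fell together and most carry the element. They span 250 bases before to 50 bases after the start site (RefSeq, GRCm38.p6), are printed 5′ to 3′ on the strand of the gene, and have matches to this core on either strand in capitals. They lie at chr4:156200769-156201068, minus strand (Isg15), chr19:34583279-34583578, plus strand (Ifit3), chr12:26456403-26456702, minus strand (Rsad2) and chr16:10785487-10785786, minus strand (Socs1).
Isg15: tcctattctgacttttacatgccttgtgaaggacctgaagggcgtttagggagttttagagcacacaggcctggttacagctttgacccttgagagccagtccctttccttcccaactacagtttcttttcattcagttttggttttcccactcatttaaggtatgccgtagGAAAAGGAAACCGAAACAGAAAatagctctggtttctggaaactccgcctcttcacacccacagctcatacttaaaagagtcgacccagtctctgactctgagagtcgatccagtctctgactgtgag
Ifit3: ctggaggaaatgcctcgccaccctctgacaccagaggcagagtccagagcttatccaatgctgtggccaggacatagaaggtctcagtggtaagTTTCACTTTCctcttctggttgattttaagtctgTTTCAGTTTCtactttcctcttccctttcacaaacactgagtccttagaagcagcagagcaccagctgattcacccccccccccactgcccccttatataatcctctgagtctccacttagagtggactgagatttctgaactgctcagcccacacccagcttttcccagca
Rsad2: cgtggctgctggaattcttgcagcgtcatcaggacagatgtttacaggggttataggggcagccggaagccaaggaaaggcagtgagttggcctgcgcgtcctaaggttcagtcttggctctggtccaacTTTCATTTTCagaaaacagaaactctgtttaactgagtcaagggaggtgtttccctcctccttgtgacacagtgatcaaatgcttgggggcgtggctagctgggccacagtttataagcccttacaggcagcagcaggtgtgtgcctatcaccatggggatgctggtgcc
Socs1: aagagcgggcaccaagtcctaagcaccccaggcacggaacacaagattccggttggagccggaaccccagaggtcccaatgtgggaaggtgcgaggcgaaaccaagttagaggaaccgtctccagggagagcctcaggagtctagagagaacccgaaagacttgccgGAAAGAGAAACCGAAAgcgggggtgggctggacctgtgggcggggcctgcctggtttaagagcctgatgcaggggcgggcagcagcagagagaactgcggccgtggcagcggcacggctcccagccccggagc
The 3 matches of Isg15 overlap one another, as do the 2 of Socs1. Ifit3 has 2 matches and Rsad2 has 1, on the opposite strand. Of the 6 interferon genes that fell, 5 hold a match, and Ifit2 holds none in this window. Of all 32851 promoters of the same length, 3.44% hold one, and of the 739 tested genes with a promoter in the table, 71 do. Of the 18 genes of the whole type I list with a promoter, 9 hold one, and of the 32 such genes among all that fell, 8 do. A match describes letters only.

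**Figure D4:**
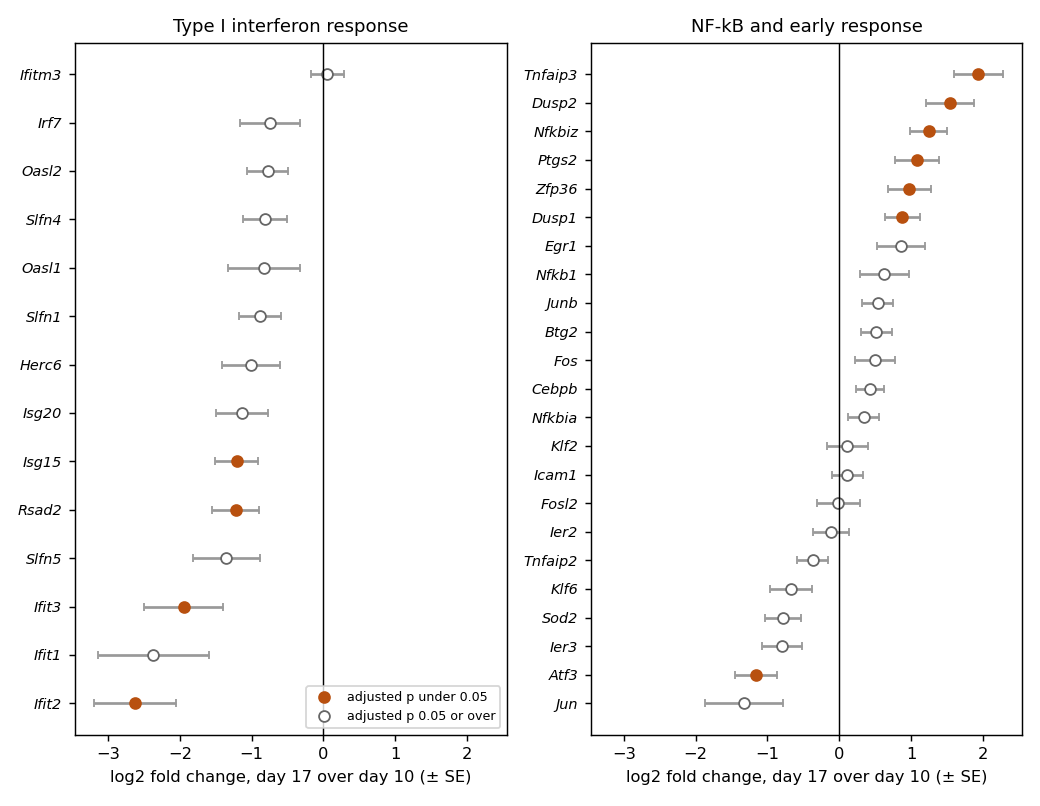
Points give the log2 fold change in granulocytes between day 17 and day 10 as the mean of both genotypes, bars its standard error, and filled points an adjusted p under 0.05, for the 14 tested type I interferon genes (left) and the 23 tested NF-kB and early response genes (right). On the left 13 of 14 points lie below 0, and on the right 15 of 23 lie above 0. The median over all 927 tested genes is 0.02.

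Among 24 genes of NF-kB and early response, 23 passed the filter, 6 rose (Tnfaip3, Nfkbiz, Dusp1, Dusp2, Zfp36 and Ptgs2) and 1 fell (Atf3), with a median log2 fold change of 0.43. Tnfaip3, the A20 protein that ends NF-kB signalling, was at 111, 229 and 294 CPM in the WT grafts and 392, 369, 389 and 420.1 in the Rnlsmut grafts at day 10, and 1255 and 1471 (WT) and 79.8, 1082 and 1100 (Rnlsmut) at day 17 (log2 fold change 1.94 ± 0.34 SE, adjusted p = 0.00479). One Rnlsmut graft of day 17, with 10 granulocytes, held a single UMI of it, and the other 4 grafts of day 17 lay above all of day 10. Nfkbiz, a nuclear regulator of NF-kB targets, was at 554, 534 and 883 CPM in the WT grafts and 625, 709, 911 and 882 in the Rnlsmut grafts at day 10, and 1391 and 2075 (WT) and 798, 2164 and 1793 (Rnlsmut) at day 17 (log2 fold change 1.25 ± 0.26 SE, adjusted p = 0.00765). Dusp2 and Dusp1, phosphatases of MAP kinases, had log2 fold changes of 1.54 and 0.88, and Zfp36, which speeds decay of cytokine mRNA, one of 0.98. The call of Dusp2 was lost without the larger WT graft of day 17 (range 1.25 to 1.73), and those of Dusp1, Zfp36 and Ptgs2 without 7, 8 and 5 of the 12 single grafts (ranges 0.77 to 1.05, 0.75 to 1.23 and 0.86 to 1.29). Ptgs2, the prostaglandin enzyme COX-2, was at 627, 76.4 and 504 CPM in the WT grafts and 552, 428, 737 and 672 in the Rnlsmut grafts at day 10, and 847 and 528 (WT) and 798, 1591 and 2282 (Rnlsmut) at day 17 (log2 fold change 1.08 ± 0.31 SE, adjusted p = 0.033). Tnfaip3 was also higher at day 17 in lymphocytes, at a mean of 318 and 287 CPM at day 10 and 691 and 714 at day 17, but not in macrophages, where means lay between 94.2 and 142. The first of its 2 promoters in the table is printed because Tnfaip3 was the only one of the 5 risen genes with a promoter in the table that holds GGG, any 3 bases and TTCC, a form of the NF-kB site found in 5.56% of all promoters. Of the 739 tested genes with a promoter, 77 hold this form, and of the 35 such genes among all that rose, 2 do. The printed promoter lies at chr10:19015361-19015660, minus strand, with matches on either strand in capitals.
Tnfaip3: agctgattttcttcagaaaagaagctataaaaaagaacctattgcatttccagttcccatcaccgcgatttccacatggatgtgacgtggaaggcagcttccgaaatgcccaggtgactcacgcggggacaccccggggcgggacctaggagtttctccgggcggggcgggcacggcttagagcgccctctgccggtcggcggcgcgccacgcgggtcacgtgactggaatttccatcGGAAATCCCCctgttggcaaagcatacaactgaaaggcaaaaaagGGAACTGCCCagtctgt

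Plin2, which coats lipid droplets, was at 2768, 839.9 and 378 CPM in the WT grafts and 1627, 1388, 1367 and 1344 in the Rnlsmut grafts at day 10, and 188 and 189 (WT) and 319, 700.1 and 611 (Rnlsmut) at day 17 (log2 fold change −2.04 ± 0.38 SE, adjusted p = 0.00479). Hilpda, a lipid droplet protein induced by hypoxia, was at 886, 1680 and 378 CPM in the WT grafts and 683, 1078, 1527 and 966 in the Rnlsmut grafts at day 10, and 105 and 37.7 (WT) and 79.8, 934 and 407 (Rnlsmut) at day 17 (log2 fold change −2.09 ± 0.43 SE, adjusted p = 0.00765). Cstb, an inhibitor of lysosomal cathepsins, was at 2288, 764 and 2395 CPM in the WT grafts and 929.7, 1403, 1045 and 1071 in the Rnlsmut grafts at day 10, and 178 and 189 (WT) and 878, 679 and 489 (Rnlsmut) at day 17 (log2 fold change −2.04 ± 0.30 SE, adjusted p = 0.00102), and the lowest values were those of WT grafts at day 17. Npc2, which carries cholesterol out of lysosomes, had a log2 fold change of −1.82. Ddit3, the stress factor CHOP, was at 332, 305 and 252 CPM in the WT grafts and 479, 487, 281 and 294 in the Rnlsmut grafts at day 10, and 73.2 and 113 (WT) and 79.8, 127 and 81.5 (Rnlsmut) at day 17 (log2 fold change −1.79 ± 0.36 SE, adjusted p = 0.0075), without overlap between days, and its call was lost without the larger WT graft of day 17 (range −1.97 to −1.58 in the 10 single-graft omissions that tested it). Fth1, the ferritin heavy chain, fell by 0.87 on the log2 scale and Il1rn, the interleukin 1 receptor antagonist, by 0.86. The call of Fth1 was lost without either WT graft of day 17 and that of Il1rn without the larger one. Ly6a fell by 2.90, from 76.4 to 738 CPM at day 10 to 0 to 63.7 at day 17. Lymphocytes held Ly6a at means of 996 to 1559 and macrophages at 702 to 2532. Macrophages also held Cstb at 1697 and 1975 at day 10 and 1035 and 943 at day 17. The part of free RNA from other cells in the granulocyte values was not tested. Of 9 tested genes of lipid and iron handling, 2 fell and 0 rose, and of 13 tested genes of glycolysis and hypoxia, Hilpda alone passed.

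Il1b, the central inflammatory cytokine of myeloid cells, was detected in 96.2% of granulocytes (NK cells, 2.38%) and Cxcl2 in 82.1% (NK cells, 4.36%). Il1b was at 16606, 10079 and 6009 CPM in the WT grafts and 13815, 14786, 17725 and 14285 in the Rnlsmut grafts at day 10, and 14772 and 19387 (WT) and 13648, 21746 and 20293 (Rnlsmut) at day 17 (log2 fold change 0.50 ± 0.22 SE, adjusted p = 0.146). Cxcl2 was at 19928, 8552 and 11430 CPM in the WT grafts and 21006, 19734, 19265 and 16974 in the Rnlsmut grafts at day 10, and 15149 and 16257 (WT) and 5268, 23232 and 25549 (Rnlsmut) at day 17 (log2 fold change 0.11 ± 0.30 SE, adjusted p = 0.859). In these genes the groups overlapped. Of 13 listed chemokines, which do not include Ccl8, 9 passed the filter and 0 passed the test as the mean of both genotypes. Of 7 tested genes of interleukin 1 and the inflammasome, Il1rn alone passed, and of 4 tested genes of other cytokines, 0 passed. Cxcl10, which attracts T cells through CXCR3, was at 2768, 8781 and 1345 CPM in the WT grafts and 4285, 2319, 2653 and 1849 in the Rnlsmut grafts at day 10, and 1067 and 302 (WT) and 1756, 3607 and 3301 (Rnlsmut) at day 17. It fell in WT grafts (log2 fold change −2.30 ± 0.61 SE, adjusted p = 0.0477) and gave log2 fold change 0.031 ± 0.46 SE, adjusted p = 0.976 in Rnlsmut grafts, and the difference between these changes gave an adjusted p of 0.141. The call in WT grafts was lost without 8 of the 12 single grafts (range −3.58 to −1.35). Of 12 chemoattractant and growth factor receptors, 8 passed the filter and Fpr1 alone rose. All 8 tested genes of adhesion and migration had a log2 fold change above 0, where the median over all 927 genes was 0.02, and 0 of the 8 passed. Of the 6 NADPH oxidase genes and the 10 tested genes of survival and death, 0 passed, among them Mcl1, which keeps neutrophils alive, at a median of 2846 CPM. Osm, a cytokine of the interleukin 6 family, was at 332, 76.4 and 84 CPM in the WT grafts and 203, 325, 656 and 147 in the Rnlsmut grafts at day 10, and 73.2 and 75.4 (WT) and 0, 446 and 163 (Rnlsmut) at day 17, and no comparison passed the test. Tgfb1 held few UMIs and did not pass the filter, with 185, 153 and 42 CPM in the WT grafts and 87.2, 148, 93.8 and 105 in the Rnlsmut grafts at day 10, and 73.2 and 0 (WT) and 0, 63.6 and 122 (Rnlsmut) at day 17.

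Within each genotype, fewer genes passed. In WT grafts 25 genes passed between days (2.7%), 10 higher and 15 lower. Without the graft of 39 granulocytes at day 17, 10 passed, without the third or the fourth WT graft of day 10, 49 and 47 passed, and without the cells rich in MHC class II transcripts described below, 10 passed. Dusp16, Fpr1, Tnfaip3 and Cstb passed in all 18 alternatives. In WT grafts Fpr1 rose by a log2 fold change of 3.16 and Cstb fell by 3.26. In Rnlsmut grafts 26 genes passed (2.8%), 13 in each direction (1.4%), and Atf3, Hcar2 and Ccl8 passed in all 20 alternatives. Without 1 of the Rnlsmut grafts of day 10, 9, 3, 5 and 4 genes passed, in their order, without the third or the fourth of day 17, 6 and 8, and without the fourth WT graft of day 10, 40. Atf3, a stress-induced repressor, was at 1144, 1069 and 2143 CPM in the WT grafts and 1990, 1846, 2278 and 2227 in the Rnlsmut grafts at day 10, and 806 and 1735 (WT) and 159.6, 615 and 529.7 (Rnlsmut) at day 17, and it fell in Rnlsmut grafts (log2 fold change −2.14 ± 0.39 SE, adjusted p = 0.00679) while in WT grafts the test gave log2 fold change −0.18 ± 0.42 SE, adjusted p = 0.835. Hcar2, the receptor for nicotinic acid and ketone bodies, was at 1439, 3054 and 1303 CPM in the WT grafts and 2484, 3973, 3604 and 4033 in the Rnlsmut grafts at day 10, and 1172 and 2263 (WT) and 639, 976 and 1222 (Rnlsmut) at day 17, and it fell in Rnlsmut grafts (log2 fold change −1.90 ± 0.35 SE, adjusted p = 0.00679). The difference between the genotypes' changes gave adjusted p values of 0.09 for Atf3 and 0.09 for Hcar2, so neither was shown to differ.

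Ccl8, a chemoattractant of monocytes that does not stand in the chemokine list, was at 221, 229 and 126 CPM in the WT grafts and 131, 103, 228 and 126 in the Rnlsmut grafts at day 10, and 251 and 151 (WT) and 1197, 1209 and 1345 (Rnlsmut) at day 17. It rose in Rnlsmut grafts (log2 fold change 2.98 ± 0.33 SE, adjusted p = 1.45e-05), and at day 17 it was higher in Rnlsmut than in WT grafts (log2 fold change 2.36 ± 0.41 SE, adjusted p = 0.00982). All 3 Rnlsmut grafts of day 17 lay above all others. The day 17 call was lost with the hashtag block and without either WT graft of that day (range without single grafts 2.13 to 2.90). Ccl8 was detected in 31.2% of granulocytes and in 26.2% of NK cells. Macrophages held it at means of 3412 to 5550 CPM. In lymphocytes its mean was 98.6 in WT and 592 in Rnlsmut grafts at day 17. Apoe, which macrophages express strongly, had 0 UMIs in the 3 WT grafts of day 10 and was at 0, 0, 40.2 and 0 in Rnlsmut grafts of day 10, 41.8 and 37.7 in WT and 159.6, 361 and 367 in Rnlsmut grafts of day 17. The 7 macrophage markers, of which Trem2 was at 0, summed to 0 to 126 CPM in WT and 42 to 201 in Rnlsmut granulocytes at day 10, and to 113 to 167 and 718 to 912 at day 17. In lymphocytes the same sum was 21.6 to 31.5 in Rnlsmut grafts at day 10 and 436 to 537 at day 17. The part of macrophage RNA in the rise of Ccl8 and Apoe was not tested.

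Granulocytes of WT and Rnlsmut grafts were compared in the same fit. As the mean of both days, 0 of 927 genes passed, with 74 at an unadjusted p under 0.05 and 0 by DESeq2. At day 10, 9 genes passed (0.971%), and 4 or 5 without any 1 of the Rnlsmut grafts of that day, 4 without the fourth WT graft and 25 without the third. The 9 were all lower in Rnlsmut grafts, among them H2-Eb1, H2-Aa, H2-Ab1 and Cd74, which make and load MHC class II molecules, and Prdx1, Rps29, Crip1 and Lyz2. H2-Aa was at 1218, 305 and 1933 CPM in the WT grafts and 131, 118, 40.2 and 42 in the Rnlsmut grafts at day 10, and 219.7 and 226 (WT) and 639, 509 and 367 (Rnlsmut) at day 17 (log2 fold change −3.78 ± 0.49 SE, adjusted p = 7.99e-05 at day 10). The first and the fourth WT graft of day 10 were high.

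Most of the MHC class II transcripts in these WT grafts were held by 2 cells. The 4 MHC class II genes summed to 167 UMIs in the 18 granulocytes of the first of these WT grafts, 133 of them in 1 cell, and to 234 UMIs in the 14 granulocytes of the other, 215 of them in 1 cell. These 2 cells held 5401 and 6211 UMIs and 1941 and 2041 genes, against a median of 1236.5 UMIs and 582 genes in their group, and had 1 and 0 UMIs of S100a8 and S100a9 together. They kept the authors' annotation, and whether they are granulocytes, doublets or another cell type was not tested. Without the 4 granulocytes of 20 or more such UMIs, an alternative chosen after the data were seen, 0 genes passed at day 10, with 51 at an unadjusted p under 0.05, and the log2 fold change of H2-Aa was −1.37. The other 2 of these 4 cells were in WT grafts of day 17 that had fewer than 10 granulocytes. Without the 1 cell of most such UMIs in each graft, the 4 genes summed to 1567, 1347 and 1080 CPM in WT grafts of day 10, against 636 to 785 in Rnlsmut grafts. In lymphocytes of the grafts of that day, the 6 listed MHC class II genes summed to 408 to 497 CPM in WT and 196 to 264 in Rnlsmut grafts. The part of free RNA from other cells in the remaining difference was not tested.

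**Figure D5:**
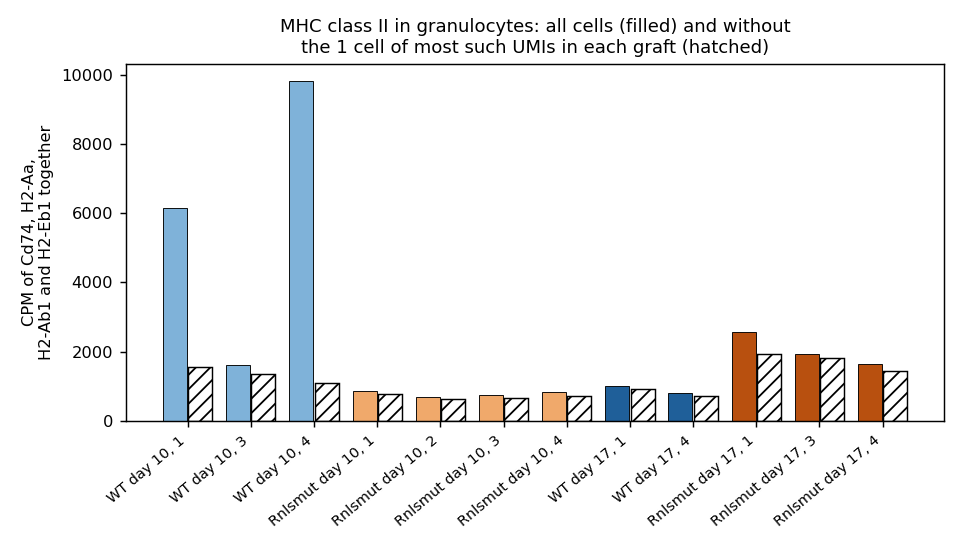
Bars give the CPM of Cd74, H2-Aa, H2-Ab1 and H2-Eb1 together in the granulocytes of each graft, filled for all cells and hatched without the 1 cell of most such UMIs. Leaving out that cell lowers the first and the fourth WT graft of day 10 from 6163 and 9834 to 1567 and 1080, and the Rnlsmut grafts of day 17 stay between 1446 and 1931.

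In Rnlsmut grafts H2-Aa (log2 fold change 2.43 ± 0.54 SE, adjusted p = 0.0205) and H2-Ab1 (log2 fold change 2.43 ± 0.50 SE, adjusted p = 0.0158) rose from day 10 to day 17, and their calls were lost without 5 and 3 of the 12 single grafts (ranges 2.19 to 2.75 and 2.22 to 2.76). The 6 MHC class II genes summed to 679 to 903 and then 1630 to 2554 CPM in these granulocytes, and to 196 to 264 and then 967 to 1012 in the lymphocytes of the same grafts. The part of free RNA in this rise was not tested.

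At day 17, 2 genes passed between genotypes (0.216%), Ccl8 and Ngp. Without the first WT graft of that day 0 passed, and without the fourth 4 did, not including Ccl8. The UMIs of Ngp came mostly from the 4 cells of 1 WT graft named above, and it was at 0 in all 3 Rnlsmut grafts, so no fold change is given. The day change differed between genotypes in 12 genes (1.29%), among them 3 MHC class II genes, Cstb and Ccl8, and in 0 genes, with 77 at an unadjusted p under 0.05, once the 4 cells rich in MHC class II transcripts were left out. The differences were then 2.40 for H2-Aa (from 4.78), 2.09 for Cstb (from 2.44) and 2.68 for Ccl8 (from 2.65). The calls of Cstb and Ccl8 were also lost without 11 of the 12 single grafts each. Without granulocytes of 4000 or more UMIs, 0 genes passed at day 10 and 0 in the difference of the day changes.

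The day change of granulocytes was also set against that of monocytes in the same 12 grafts. Of 2515 genes 34 differed (1.35%), 11 with the higher change in granulocytes (0.437%) and 23 with the lower (0.915%). S100a11 (log2 difference 1.60 ± 0.29 SE, adjusted p = 4.77e-04), S100a6 (1.29, adjusted p = 0.0195) and Hdc (2.72, adjusted p = 0.0327) had the higher change in granulocytes. Each of these differences was larger than the rise in granulocytes given above, but the values came from separate fits with separate scaling. The day change of monocytes alone was not tested. Hdc was low in monocytes, at a median of 10.8 CPM. Plin2 fell more in granulocytes (−1.40, adjusted p = 0.0401), and Ccl3 (−3.53) and Ccl4 (−1.74) had the lower change in granulocytes. Without the WT graft of 39 granulocytes at day 17, 1 gene passed.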

How the data were processed

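CD45+ cells of 16 grafts in 4 libraries were measured by droplet RNA sequencing (10x Genomics 3' v3.1). The authors deposited raw UMI counts of 32285 genes in 22441 cells and a table of each cell's library, hashtag, cluster and cell type, which were used as deposited. The submitters' processing notes name Cell Ranger and mm10, and versions, cell filters and doublet removal are not given in the sources used here. No doublet caller was run. Members, gene lists and tests were chosen with earlier results of these data known.

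UMIs were summed over the granulocytes of each graft (library and hashtag) and, with at least 10 cells, fitted by group with edgeR 4.0.16 (TMM, filterByExpr, glmQLFit, glmQLFTest) in R 4.3.3, with Benjamini-Hochberg adjustment over all genes tested and calls at an adjusted p of 0.05. Between TMM and DESeq2 1.42.0, the scaling factors of the grafts shifted a comparison by at most 0.08 (log2). The labels do not say which hashtags shared a mouse, so p-values measure the spread between grafts. Shares were compared with exact permutation tests that listed all assignments of grafts (Python 3.11.15, NumPy 2.4.6). Exact binomial limits were computed with SciPy 1.17.1. Levels are UMI counts of a gene per 1000000 UMIs (CPM) of the granulocytes of a graft. The ratio to monocytes used a pseudocount of 5.

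Genes were named by rule: markers, at most 10 per direction and contrast by p, list members past the threshold and at most 4 of the highest level per list, the 20 highest and 20 lowest ratios to monocytes, and Osm and Tgfb1. Alternatives were DESeq2, no count filter, 5 or 20 cells as the minimum, lymphocyte-marker cells left out, a hashtag block, each graft left out in turn and other denominators. Chosen after the data were seen were higher UMI minimums, shares without macrophages, and fits without granulocytes of 4000 or more UMIs or of 20 or more MHC class II UMIs. On counts simulated for the day comparison over 927 genes, 175 of 200 genes changed by 1.5 (log2) were recovered (87.5%), with 7 false calls. The simulation gave all genes a common spread and no single cells that held most UMIs of a gene. It therefore does not give the power of the fit on the real counts. RefSeq promoters (GRCm38.p6) were matched by symbol, for 739 of the 927 genes tested.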

Additional observations from a re-analysis of the deposited data

Results flagged for a closer look

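Chance alone sets about 1 in 20 groups of this size apart by the measure used here, the gap of the outermost graft divided by the range of its group, and 8 of the 106 groups of 4 grafts tested passed the limit. Genes were tested in Rnlsmut grafts at day 10 alone, the sole group with 4 fitted grafts, and shares in all 4 groups. The share of granulocytes in Rnlsmut grafts at day 10 was 3.19%, 3.23%, 3.25% and 2.01%, with a gap of 0.951 of the range. By level in granulocytes, 1 graft of the 4 stood apart for Antxr2 (0.949), Hdc (0.949), Arhgap15 (0.894), Tgtp1 (0.855) and Plin2 (0.844), and for Apoe (1.0) and Ngp (1.0) 1 graft held UMIs and the other 3 held 0.

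The day change was tested as a difference between genotypes, as the change in Rnlsmut minus the change in WT granulocytes on the log2 scale (edgeR's quasi-likelihood test, adjusted p after Benjamini and Hochberg). It was 5.07 for H2-Ab1, 4.74 for H2-Eb1, 4.78 for H2-Aa, 3.77 for Crip1, 2.65 for Ccl8 and 2.44 for Cstb. Ribosomal protein genes had differences of 2.15 (Rps29), 2.59 (Rps19), 2.71 (Rps24) and 2.87 (Rps20). It was −3.22 for Sh2d3c and −2.30 for Klf2. Without the 4 granulocytes of 20 or more MHC class II UMIs, 0 of these 12 passed, while the differences were 3.14 for H2-Ab1, 2.53 for H2-Eb1, 2.40 for H2-Aa, 2.35 for Crip1, 2.68 for Ccl8, 2.09 for Cstb, 1.58 for Rps29, 2.09 for Rps19, 1.37 for Rps24, 2.24 for Rps20, −3.07 for Sh2d3c and −2.08 for Klf2. Of the 12 single-graft omissions, the call was lost in 11 for Ccl8 and Cstb, 9 for Rps20, Rps24, Klf2 and Sh2d3c, 8 for Rps19, 2 for Crip1, 1 for Rps29 and 0 for the MHC class II genes.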

How the results depend on the processing

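Over both genotypes, where 81 genes passed between days, leaving out each graft gave 28 to 119 genes. The ranges were 10 to 49 for the day change in WT grafts, 3 to 40 in Rnlsmut grafts, 0 to 7 between genotypes over both days, 4 to 25 at day 10, 0 to 4 at day 17 and 4 to 19 for the difference of the day changes. Against monocytes the range was 1 to 53 genes. The lone WT graft left at day 17 was then assumed to vary like the other groups. Without the filter on low counts, 42 genes passed between days in WT grafts, and 7, 24, 10 and 21 passed between genotypes over both days, at day 10, at day 17 and in the difference of the day changes. DESeq2 gave 1 gene at day 17 and 19 in the difference. With at least 20 granulocytes per graft, 71 genes passed between days in Rnlsmut grafts, and no other contrast could be fitted. With at least 5, 4 passed at day 10. Leaving out granulocytes with a lymphocyte marker left too few grafts for all but 2 contrasts, in which 23 (days, Rnlsmut grafts) and 13 genes (day 10) passed. Without the cells rich in MHC class II UMIs, 10 genes passed between days in WT grafts and 0 between genotypes at day 10 and in the difference. Without granulocytes of 4000 or more UMIs, 0, 1 and 0 passed between genotypes at day 10, at day 17 and in the difference. The causes of these shifts were not tested.

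With the hashtag number as a replicate block, 32 genes passed between days, 5 in Rnlsmut grafts, 3 between genotypes at day 10, 0 at day 17 and 4 in the difference. Same-numbered grafts did not deviate together in every pair, so the pairing by number is not established.

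For shares (percentage points), the day difference over both genotypes reversed to −1.58 of myeloid cells and to −0.0803 on the log2 scale, and ranged over −0.191 to 0.492 without single grafts. At day 17 the genotype difference ranged over −1.08 to 0.31, reversed to 0.064 at the depth-scaled minimum and 0.173 without macrophages, and was −1.56 among cells of 2000 or more UMIs, with an exact p of 0.0286. Over both days it reversed to −0.521 and −0.767 at 1500 and 2000 UMIs. In WT grafts the day difference had an exact p of 0.0286 at 1500 and 2000 UMIs (1.89 and 1.52). In Rnlsmut grafts it had that p among myeloid cells (−5.64) and reversed at the depth-scaled minimum (0.188) and without macrophages (0.792). These p are unadjusted and the smallest that 4 against 4 grafts allow. Granulocytes had a median of 2213 UMIs in WT grafts at day 17 and of 1214.5 to 1286 in the other groups. A fixed minimum of 1500 or 2000 UMIs therefore kept unlike parts of the groups, and the part of depth in these differences was not tested. The day 10 genotype difference was 0.0278 among cells of 2000 or more UMIs. Of single genes, H2-Aa in WT grafts reversed to 0.025 (log2) without the cells rich in MHC class II UMIs. It reversed to 0.024 without those of 4000 or more UMIs. Osm reversed to 0.16 in Rnlsmut grafts without lymphocyte-marker cells. In the difference of day changes, Osm was at −0.36 without the first and 1.17 without the fourth WT graft of day 10, so its sign hung on single grafts. Few UMIs per graft limit what could be seen: changes smaller than 1.5 (log2) were not simulated.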
